A study of Mus musculus and Homo sapiens with 22 samples.

Results

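The 46 genes described here encode the proteins that license, unwind and copy DNA and that make its building blocks, together with the factors that package and mark the new strand. They were listed by name, with earlier results of these data known, and all 46 were found among the 22667 mouse genes listed in each of 6 RNA-seq files from N2A cells, a mouse neuroblastoma line. The study asked how nSR100, Ptbp1 and U2af65 act on alternative splicing, but reads summed over each gene are analysed here, and these describe transcript abundance and not exon use. In the siRNA arm, N2A cells were harvested 48 hours after transfection with an siRNA pool against U2af65 (siU2af65, 1 library, letter a), an siRNA pool against Ptbp1 (siPtbp1, 1 library, letter b), or a pool with no target as the control (siCtrl, 2 libraries, a and b). In the hairpin arm, stable populations carried a lentiviral hairpin against the 3′ untranslated region of nSR100 (shnSR100) or against GFP as the control (shGFP), both kept under 2 ug/mL puromycin. Each hairpin group has 1 file that combines 2 sequencing runs, so it has no replicate. The hairpin populations are selected pools and not single clones, and the siRNA cells were not described as selected.

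Before S phase, the origin recognition complex, Cdc6 and Cdt1 load the Mcm2 to Mcm7 ring onto DNA, and geminin (Gmnn) blocks Cdt1 so that each origin is used only once. At the start of S phase Cdc45 and the GINS complex join the ring to form the active helicase, primase and DNA polymerases alpha, delta and epsilon copy the strands, and the sliding clamp PCNA, loaded by replication factor C, holds the polymerases in place. Ribonucleotide reductase, thymidylate synthase and thymidine kinase supply deoxynucleotides, and many of these genes are known targets of E2F transcription factors, whose activity peaks at the entry into S phase.

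Reads in genes numbered between 60220620 and 77138004 per file. The targeted genes matched their labels: U2af2, which encodes U2af65, had 18.4 RPKM in siU2af65 and between 90.3 and 113 RPKM in the other 5 files, Ptbp1 had 8.53 RPKM in siPtbp1 and between 124 and 158 RPKM in the other 5, and Srrm4, which encodes nSR100, had 2.50 RPKM in shnSR100 and 11.6 RPKM in shGFP. Srrm4 also varied in the siRNA arm, with 12 RPKM in siU2af65 and 4.51 RPKM in siPtbp1, against 4.54 and 8.37 RPKM in siCtrl a and b. RPKM is a read count scaled by gene length and by the reads of the file, so it can be compared between genes. All 8 neuroblastoma and neuron markers were present at 1 RPKM or more in every file, with a summed level of 1009 RPKM in siU2af65, 892 RPKM in siPtbp1, 1013 and 952 RPKM in siCtrl a and b, 683 RPKM in shnSR100 and 1023 RPKM in shGFP. None of 5 immune markers and, outside the hairpin files, none of 5 fibroblast markers reached 1 RPKM, while Dcn, a fibroblast gene, had 5.70 RPKM in shnSR100 and 3.99 RPKM in shGFP. The 5 glial markers summed to at most 5.15 RPKM in any file, and of 6 endothelial and epithelial markers only Pecam1 reached 1 RPKM in every file.

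All 46 genes were expressed in every file, with between 525 and 27963 reads per gene and file. Pcna was the most abundant of them by its mean over the 6 files, at 134 RPKM, followed by Dut, the dUTPase gene, at 107 RPKM and Rpa3, a subunit of the single-strand binding protein RPA, at 85.3 RPKM. Orc1, the largest subunit of the origin recognition complex, was the least abundant at 4.36 RPKM, with Gins3 next to it at 5.37 RPKM. Subunits of one complex differed in transcript level. Within each file the highest of the Mcm2 to Mcm7 transcripts stood between 2.16 and 3.77 times above the lowest, which was Mcm4. The 4 GINS transcripts spanned a factor of 5.05 to 11.9, with Gins3 the lowest, and the 5 replication factor C transcripts a factor of 2.20 to 3.0. On TMM-scaled counts, the log2 difference of siCtrl b over siCtrl a had a median of 0.08 for the 46 genes, against 0.04 for all 11237 genes tested below. It was positive for 34 of the 46 genes, and for 6161 of all genes tested. It ran from -0.60 for Orc1 to 0.67 for Cdc6, both among the least abundant of the 46. Rpa1, with a mean of 33.8 RPKM, differed by 0.48.

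The members' share of all reads separated the files. It was 0.335% in siU2af65 and 0.608% in siPtbp1, against 0.367% and 0.408% in siCtrl a and b, and 0.390% in shnSR100, against 0.250% in shGFP. The siPtbp1 file stood above both siCtrl files and siU2af65 below both, and shGFP was the lowest of the 6. The exact 95% binomial interval was 0.606 to 0.610% for siPtbp1 and 0.407 to 0.410% for siCtrl b, and such intervals cover counting error only. By RPKM, siPtbp1 was the highest of the 6 files for 41 of the 46 genes, and shGFP was the lowest for 35. The same counts were not made over all genes, so how far they are particular to the members was not tested. Against the siCtrl files alone, shGFP lay below both by RPKM for 41 of the 46 genes and for 30.7% of all 11237 genes tested. In bulk RNA, fewer cycling cells and less of these transcripts per cell cannot be told apart.

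**Figure D1:**
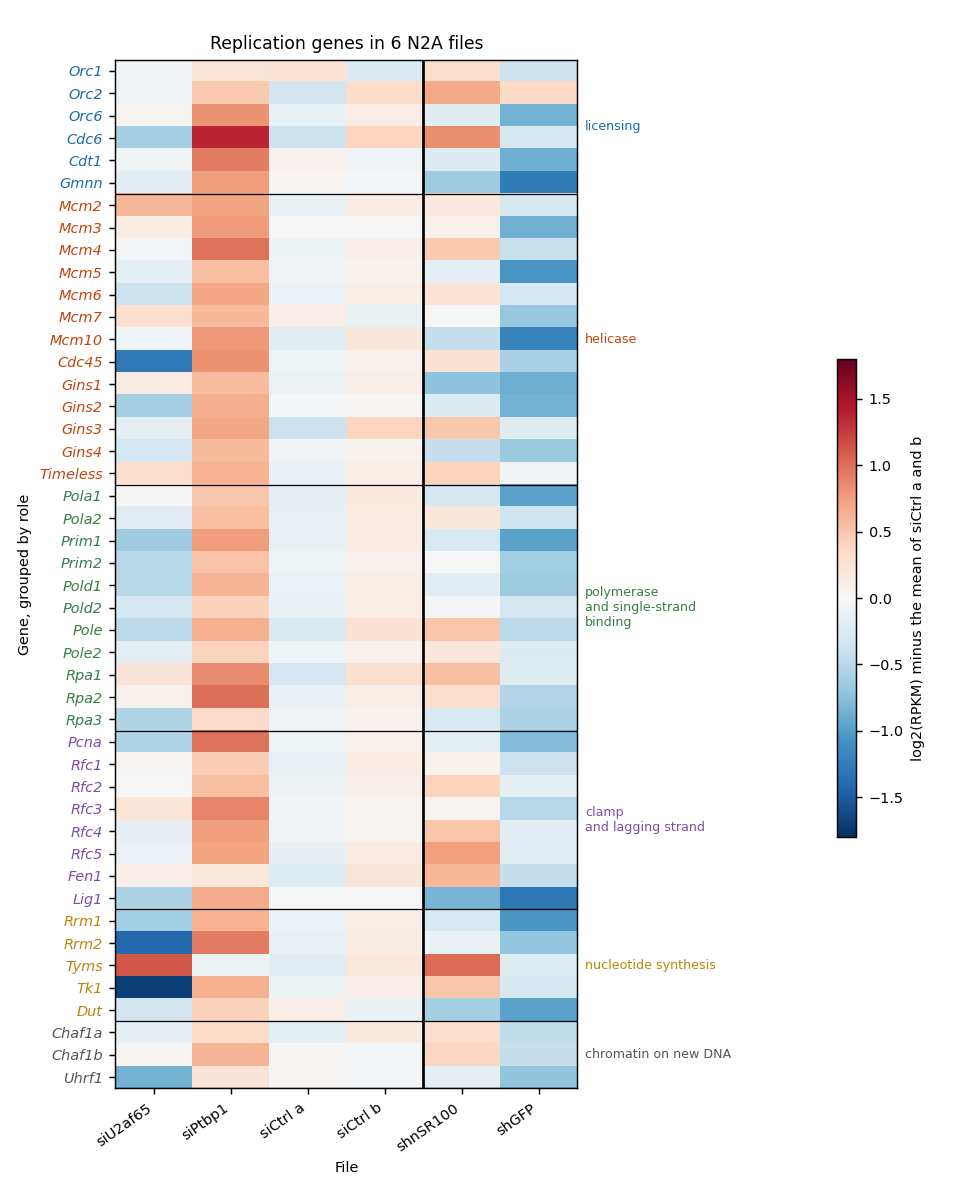
Level of each of the 46 genes in each of the 6 N2A files, as log2(RPKM) minus the mean of siCtrl a and b (color scale; genes run down, files across, and the heavy line separates siRNA from hairpin files). The siPtbp1 column is red for nearly all genes, the siU2af65 column is dark blue for Tk1, Rrm2 and Cdc45 and red for Tyms, and the shGFP column is blue for nearly all genes.

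Promoter letters were available for 38 of the 46 genes, as RefSeq windows of 300 bases (build GRCm38.p6) that run from 250 bases before a gene's start to 50 bases after it. E2F-type letters, taken as TTTCCCGC, TTTCGCGC, TTTGCCGC or TTTGGCGC on either strand, occurred in 14 of these 38 genes (36.8%), against 2.60% of all 27025 genes with a window. By window the figures were 14 of 45 (31.1%), against 2.26% of 32851. The CCAAT letters, also searched on both strands, occurred in 24 of the 38 genes (63.2%), against 41.1% of all genes. The following 7 stretches of 30 bases show 1 such match for each member whose values are described gene by gene and whose match had 11 bases of window on each side, other than Mcm5, whose matches are not printed. They are written 5′ to 3′ on the gene's strand, and capitals mark the E2F-type letters, of which the Rfc3 stretch holds a second match on the other strand.
Cdc6 (chr11:98908002-98908031, plus strand): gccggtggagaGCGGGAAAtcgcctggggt
Mcm3 (chr1:20820275-20820304, minus strand): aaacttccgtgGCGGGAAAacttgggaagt
Mcm6 (chr1:128359734-128359763, minus strand): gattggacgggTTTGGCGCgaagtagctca
Mcm7 (chr5:138172030-138172059, minus strand): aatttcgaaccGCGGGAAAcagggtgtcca
Rfc3 (chr5:151651190-151651219, minus strand): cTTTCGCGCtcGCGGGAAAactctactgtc
Lig1 (chr7:13278841-13278870, plus strand): cgccaaagtgcGCGCGAAAtctgtgtggcg
Uhrf1 (chr17:56304117-56304146, plus strand): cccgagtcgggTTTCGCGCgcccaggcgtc
Further matches in Mcm6, not shown, overlap each other on opposite strands, and a further match in Mcm7 overlaps a CCAAT match. These are matches of letters in a window and do not show that a factor binds there. The 14 genes with the letters and the 24 without them had nearly the same median differences: 0.58 and 0.58 for siPtbp1 over siCtrl, -0.27 and -0.23 for siU2af65 over siCtrl, and 0.56 and 0.67 for shnSR100 over shGFP (log2 scale, no test).

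After U2af65 knockdown, 4 of the 46 genes fell and 1 rose. Tk1, Rrm2, Cdc45 and Uhrf1 fell, and Tyms rose. The median log2 difference of the 46 genes was -0.26, and 38 of them had a negative difference, while the median of all genes was 0.00. Against siCtrl a alone, which shares the letter of siU2af65, 33 of the 46 differences were negative, and against siCtrl b alone 38 were. Calls are those of edgeR's quasi-likelihood test over 11237 genes at a Benjamini-Hochberg adjusted p under 0.05, in which all 46 members were tested; by that rule 5.24% of all genes were called, 3.42% lower and 1.82% higher, and 50.4% had a negative difference. At an unadjusted p under 0.05 stood 16 of the 46 members, against 23.5% of all genes. On TMM-scaled counts siU2af65 lay below both siCtrl libraries for 30 of the 46 genes, against 39.5% of all genes, and above both for 5 (Mcm2, Mcm7, Timeless, Rfc3 and Tyms), against 40.6%. The test takes its spread from the siCtrl pair alone, and the lone siU2af65 library is assumed to vary like it. The labels do not state whether siCtrl a and b were separate cultures, so the p-values reflect only how far these files differ, and that spread may be technical.

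The supply of deoxynucleotides held the 2 largest drops, Tk1 and Rrm2, and the one rise, Tyms. Tk1, the thymidine kinase that salvages thymidine in S phase, had 14.9 RPKM in siU2af65, against 45.0 and 51.5 RPKM in siCtrl a and b. It fell by 1.79 on the log2 scale (edgeR adjusted p = 0.00848, SE 0.23), far beyond the gap between the controls. Rrm2, the S phase subunit of ribonucleotide reductase, had 15.7 RPKM in siU2af65, against 38.0 and 46 RPKM in siCtrl a and b. It fell by 1.52 (edgeR adjusted p = 0.0130, SE 0.23). Its partner subunit Rrm1 had 42.8 RPKM in siU2af65, against 61.3 and 70.3 RPKM in siCtrl a and b, which also puts it below both controls, but the difference of -0.72 missed the threshold (edgeR adjusted p = 0.111, SE 0.24). limma on log2(RPKM + 1) did call Rrm1 lower (adjusted p = 0.0362), and its adjusted p ran from 0.0362 to 1 over the alternatives. Tyms, the thymidylate synthase that makes dTMP from dUMP, had the opposite sign, with 23.2 RPKM in siU2af65, against 9.43 and 12.2 RPKM in siCtrl a and b. It rose by 1.00 (edgeR adjusted p = 0.0433, SE 0.24), and its level in siU2af65 lay above both controls. Dut, whose product makes dUMP, had 96.1 RPKM in siU2af65, against 131 and 112 RPKM in siCtrl a and b, a difference of -0.45 that missed the threshold (edgeR adjusted p = 0.281, SE 0.23). A pseudogene of Tyms is annotated and the gene Afmid overlaps Tk1, so reads of both could be split by the authors' counting, whose rule is not given in the sources used here.

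Of the 13 helicase genes, the activator Cdc45 was the one that passed the test. Cdc45 had 8.51 RPKM in siU2af65, against 19.6 and 21.8 RPKM in siCtrl a and b, and it fell by 1.38 (edgeR adjusted p = 0.0179, SE 0.24). The 6 ring genes showed no common direction: none passed the test, 3 of 6 differences were negative, and their median was -0.05. Mcm2 was the highest, with 69.3 RPKM in siU2af65, against 42.0 and 50.3 RPKM in siCtrl a and b, a difference of 0.49 (edgeR adjusted p = 0.212, SE 0.22). Mcm6 was the lowest, with 39.8 RPKM in siU2af65, against 48.4 and 55.6 RPKM in siCtrl a and b, a difference of -0.49 (edgeR adjusted p = 0.212, SE 0.22). So Mcm2 lay above both controls and Mcm6 below both. The differences of the remaining ring genes were 0.20 for Mcm7, 0.03 for Mcm3, -0.12 for Mcm4 and -0.27 for Mcm5, each within 1.5 times its SE. Mcm4 had 20.7 RPKM in siU2af65, against 19.8 and 22.3 RPKM in siCtrl a and b, and so lay between its controls by RPKM. On TMM-scaled counts Mcm4 lay slightly below both, by -0.10 against siCtrl a and -0.15 against siCtrl b. Mcm5 had 38.8 RPKM in siU2af65, against 41.9 and 45.6 RPKM in siCtrl a and b, and Mcm7 had 78.1 RPKM in siU2af65, against 68.3 and 58.2 RPKM in siCtrl a and b. Mcm3 stood at 63.7 RPKM in siU2af65 and 58.0 and 58.5 RPKM in siCtrl a and b, and its small difference was negative (-0.03) without the filter on low genes and against siCtrl a alone. Of the GINS genes, Gins2 had 25.5 RPKM in siU2af65, against 38.0 and 39.2 RPKM in siCtrl a and b, which missed the threshold (-0.70, edgeR adjusted p = 0.107, SE 0.23), and the other 3 lay between -0.41 and 0.04. Cdc45 overlaps the gene Ufd1 and Gins2 the gene Gse1, which limits how far their reads can be assigned.

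None of the 6 licensing genes, 11 polymerase and RPA genes or 8 clamp and lagging strand genes passed edgeR's main test after U2af65 knockdown. All 6 licensing genes had negative differences, between -0.75 and -0.06, of which that of Orc6 was positive with library totals. Cdc6, which loads the ring, had 5.22 RPKM in siU2af65, against 6.04 and 10.4 RPKM in siCtrl a and b, a difference of -0.75 with a wide error (edgeR adjusted p = 0.223, SE 0.34). Cdt1 had 66.1 RPKM in siU2af65, against 73.6 and 66.4 RPKM in siCtrl a and b. In the polymerase group 10 of 11 differences were negative, with a median of -0.42, and those of Pola1 and Rpa2 were positive with library totals. Prim1, the catalytic primase subunit, had 39.0 RPKM in siU2af65, against 55.3 and 66.9 RPKM in siCtrl a and b, a difference of -0.75 (edgeR adjusted p = 0.0762, SE 0.22). The Prim1 call depended on the fit: edgeR without the filter on low genes (adjusted p = 0.044) and limma on log2(RPKM + 1) (adjusted p = 0.0292) called it lower, within a range of 0.0291 to 1 over the alternatives. Pold1, the catalytic subunit of polymerase delta, had 24.1 RPKM in siU2af65, against 31.7 and 36.6 RPKM in siCtrl a and b, and Pole had 8.32 RPKM in siU2af65, against 9.56 and 13.8 RPKM in siCtrl a and b. Both lay below their controls. Rpa1 had 32.3 RPKM in siU2af65, against 22.4 and 34.0 RPKM in siCtrl a and b, and Rpa2 had 33.7 RPKM in siU2af65, against 29.6 and 34.8 RPKM in siCtrl a and b, so by RPKM both lay between their controls. In the clamp group 7 of 8 were negative, with a median of -0.16, and those of Fen1, Rfc1 and Rfc2 were positive with library totals. Pcna had 90.2 RPKM in siU2af65, against 125 and 139 RPKM in siCtrl a and b, a difference of -0.65 (edgeR adjusted p = 0.128, SE 0.23), and Lig1, the ligase that joins Okazaki fragments, had 43.9 RPKM in siU2af65, against 64.6 and 64.2 RPKM in siCtrl a and b, a difference of -0.66 (edgeR adjusted p = 0.126, SE 0.23). For Prim1, Pcna and Lig1 alike, siU2af65 lay below both controls. The clamp loader genes Rfc1 to Rfc5 lay between -0.24 and 0.12. Rfc3 had 38.6 RPKM in siU2af65, against 31.9 and 34.2 RPKM in siCtrl a and b, Rfc5 had 18.4 RPKM in siU2af65, against 17.9 and 22.1 RPKM in siCtrl a and b, and Fen1 had 19.9 RPKM in siU2af65, against 16.1 and 21.8 RPKM in siCtrl a and b.

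Of the 3 genes acting on new chromatin, Uhrf1 fell. Uhrf1, which brings the maintenance methyltransferase to hemimethylated DNA, had 34.3 RPKM in siU2af65, against 62.8 and 61.4 RPKM in siCtrl a and b, and the difference was -0.96 (edgeR adjusted p = 0.0477, SE 0.23). When low genes were left out up to a mean of 5 RPKM, neither Uhrf1 (-0.94, edgeR adjusted p = 0.0688) nor Tyms (1.02, edgeR adjusted p = 0.0606) passed, which left 3 members that fell and none that rose. limma on log2(RPKM + 1) called 6 members lower, with Prim1 and Rrm1 added to the 4. Over all 11237 genes that fit called 630 lower, against 384 in edgeR's main test. The chromatin assembly factor genes Chaf1a and Chaf1b had differences of -0.25 (SE 0.23) and -0.08 (SE 0.23), and neither passed the test; Chaf1b was positive with library totals. The calls depend on the control pair: with shGFP joined to the siCtrl pair, or standing in for siCtrl a or for siCtrl b, none of the 46 genes and none of the 11237 passed edgeR's test, while 4, 4 and 2 members had an unadjusted p under 0.05. The targeted gene U2af2 was among the genes that did not pass, so the loss of calls is not particular to the members. In those fits 27, 24 and 24 of the 46 differences were negative, and Tk1 stood at -1.68, -1.62 and -1.58. Scaled by library totals, 31 of 46 differences were negative.

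**Figure D2:**
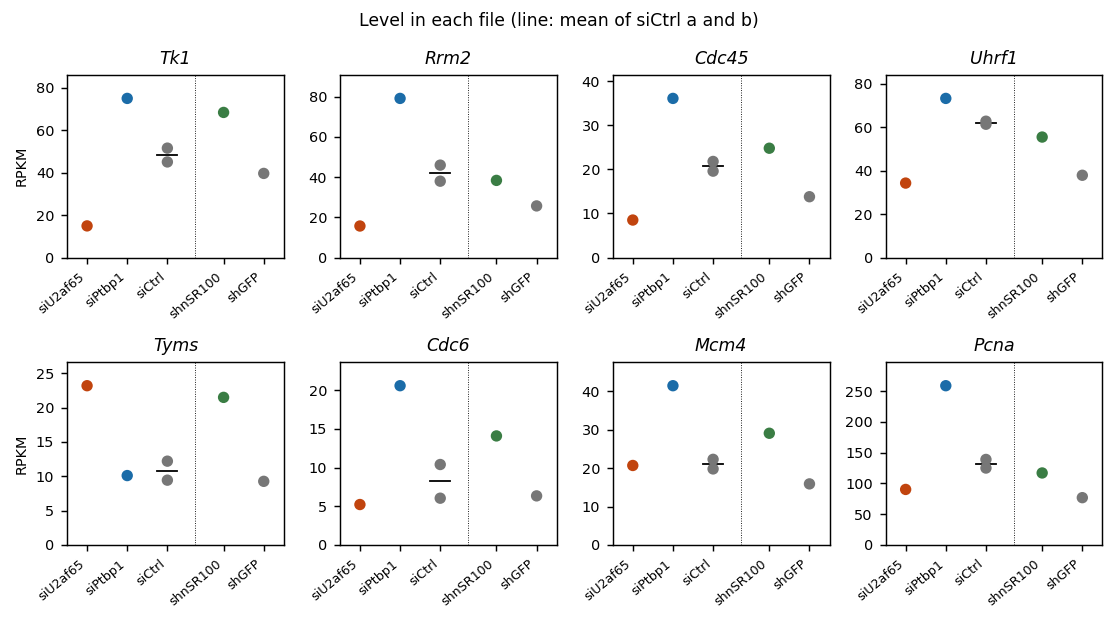
RPKM of 8 genes in each N2A file (vertical axes start at 0 and differ between panels; the bar is the mean of siCtrl a and b, and the dotted line separates siRNA from hairpin files). Tk1, Rrm2, Cdc45 and Uhrf1 are lowest in siU2af65, Tyms is highest there at 23.2 RPKM, and Cdc6, Mcm4 and Pcna are highest in siPtbp1.

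After Ptbp1 knockdown the replication genes stood higher as a group, but no single gene passed the main test. The log2 difference of siPtbp1 over siCtrl was positive for 45 of the 46 genes, with a median of 0.57, against 0.01 for all genes, of which 52.2% were positive. The count of 45 was the same with library totals, RLE factors, DESeq2 and limma, and it was 44 against siCtrl a or siCtrl b alone. Each of these settings reuses the lone siPtbp1 library, so the shared direction of the genes was not replicated. On TMM-scaled counts siPtbp1 lay above both siCtrl libraries for 43 of the 46 genes, against 34.8% of all genes, and the exceptions were Orc1, Fen1 and Tyms. edgeR's test called none of the 46 genes. It called 3 of all 11237 genes (0.0267%, all lower), and at an unadjusted p under 0.05 it held 29 of the 46 genes, against 4.28% of all. DESeq2 also called none of the 46, limma on log2(RPKM + 1) called 11 members higher among 29 such genes in all (0.258% of those tested), edgeR scaled by library totals called 7 members higher among 14 (0.125%), and edgeR without the filter on low genes called Cdc6 alone. The 11 genes that limma called were Cdc6, Cdt1, Orc6, Mcm3, Mcm4, Prim1, Rpa1, Rpa2, Pcna, Rfc3 and Rrm2.

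The licensing genes held the largest single difference. Cdc6 had 20.6 RPKM in siPtbp1, against 6.04 and 10.4 RPKM in siCtrl a and b, a log2 difference of 1.28 (edgeR adjusted p = 0.630, SE 0.32). Its controls were far apart, and siPtbp1 still lay above both. Cdt1, the other loader of the ring, had 132 RPKM in siPtbp1, against 73.6 and 66.4 RPKM in siCtrl a and b, a difference of 0.86 (edgeR adjusted p = 0.730, SE 0.22). Its inhibitor Gmnn and Orc6 also stood above both controls, with differences of 0.69 (SE 0.23) and 0.75 (SE 0.20), while Orc2 had one of 0.39 (SE 0.26) and Orc1 one of 0.13 (SE 0.38).

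All 13 helicase genes had positive differences in siPtbp1, between 0.49 and 0.93, and the 6 ring genes had a median of 0.65. Mcm4 had 41.5 RPKM in siPtbp1, against 19.8 and 22.3 RPKM in siCtrl a and b, a difference of 0.93 (edgeR adjusted p = 0.477, SE 0.20). Mcm3 had 98.9 RPKM in siPtbp1, against 58.0 and 58.5 RPKM in siCtrl a and b (0.71, SE 0.22), and Mcm6 had 84.3 RPKM in siPtbp1, against 48.4 and 55.6 RPKM in siCtrl a and b (0.65, SE 0.21). The control values of these ring genes were close together and siPtbp1 lay well above them. Mcm2 had 75.1 RPKM in siPtbp1, against 42.0 and 50.3 RPKM in siCtrl a and b (0.65, SE 0.22), Mcm5 had 63.5 RPKM in siPtbp1, against 41.9 and 45.6 RPKM in siCtrl a and b (0.49, SE 0.21), and Mcm7 had 94.2 RPKM in siPtbp1, against 68.3 and 58.2 RPKM in siCtrl a and b (0.52, SE 0.24). Cdc45 had 36.1 RPKM in siPtbp1, against 19.6 and 21.8 RPKM in siCtrl a and b, a difference of 0.75 (edgeR adjusted p = 0.821, SE 0.22). The 4 GINS genes lay between 0.50 and 0.60, and Gins2 had 60.9 RPKM in siPtbp1, against 38.0 and 39.2 RPKM in siCtrl a and b. Mcm7 overlaps the gene Ap4m1, so its reads cannot be assigned with certainty.

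In the polymerase and RPA group all 11 differences were positive, with a median of 0.48. Rpa2, the phosphorylated subunit of RPA, had 64.0 RPKM in siPtbp1, against 29.6 and 34.8 RPKM in siCtrl a and b, a difference of 0.94 (edgeR adjusted p = 0.498, SE 0.21). Rpa1, the large subunit, had 50 RPKM in siPtbp1, against 22.4 and 34.0 RPKM in siCtrl a and b (0.78, SE 0.24), and the small subunit Rpa3 had a difference of 0.29 (SE 0.21). Prim1 had 102 RPKM in siPtbp1, against 55.3 and 66.9 RPKM in siCtrl a and b (0.70, SE 0.21), and its partner Prim2 had a difference of 0.46 (SE 0.25). The 4 genes of the polymerase alpha and primase complex lay between 0.43 and 0.70, Pold1 and Pold2 of polymerase delta at 0.56 (SE 0.20) and 0.36 (SE 0.21), and Pole and Pole2 of polymerase epsilon at 0.58 (SE 0.23) and 0.35 (SE 0.23). Pold1 had 52 RPKM in siPtbp1, against 31.7 and 36.6 RPKM in siCtrl a and b, and Pole had 17.9 RPKM in siPtbp1, against 9.56 and 13.8 RPKM in siCtrl a and b.

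Of the clamp and lagging strand genes, Pcna had 259 RPKM in siPtbp1, against 125 and 139 RPKM in siCtrl a and b. That is the highest level of any of the 46 genes in any file, and the difference was 0.92 (edgeR adjusted p = 0.601, SE 0.22). Rfc3, a clamp loader subunit, had 60.5 RPKM in siPtbp1, against 31.9 and 34.2 RPKM in siCtrl a and b (0.82, SE 0.21), and the other 4 loader genes lay between 0.39 and 0.70. Rfc5 had 32.5 RPKM in siPtbp1, against 17.9 and 22.1 RPKM in siCtrl a and b, and Lig1 had 102 RPKM in siPtbp1, against 64.6 and 64.2 RPKM in siCtrl a and b. Both lay above their controls. Fen1, the flap nuclease that trims Okazaki fragments, stood between its controls, with 21.4 RPKM in siPtbp1 and 16.1 and 21.8 RPKM in siCtrl a and b (0.13, SE 0.24). Fen1 overlaps the gene Tmem258, and pseudogenes of Pcna are annotated, which limits how their reads can be assigned.

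Of the 5 nucleotide synthesis genes, 4 had positive differences in siPtbp1, and Tyms stayed near its controls. Rrm2 had 79.2 RPKM in siPtbp1, against 38.0 and 46 RPKM in siCtrl a and b, a difference of 0.87 (edgeR adjusted p = 0.601, SE 0.20). Tk1 had 74.9 RPKM in siPtbp1, against 45.0 and 51.5 RPKM in siCtrl a and b (0.59, SE 0.21), and Rrm1 had 101 RPKM in siPtbp1, against 61.3 and 70.3 RPKM in siCtrl a and b (0.57, SE 0.23). All 3 lay above both controls. Dut had 162 RPKM in siPtbp1, against 131 and 112 RPKM in siCtrl a and b (0.36, SE 0.22). Tyms was the one member with a negative difference: it had 10.1 RPKM in siPtbp1, inside the range of its controls at 9.43 and 12.2 RPKM in siCtrl a and b (-0.14, edgeR adjusted p = 0.999, SE 0.25). Among the chromatin genes, Chaf1b had a difference of 0.56 (SE 0.22), Chaf1a one of 0.28 (SE 0.22) and Uhrf1 one of 0.18 (SE 0.22). Uhrf1 had 73.3 RPKM in siPtbp1, against 62.8 and 61.4 RPKM in siCtrl a and b.

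**Figure D3:**
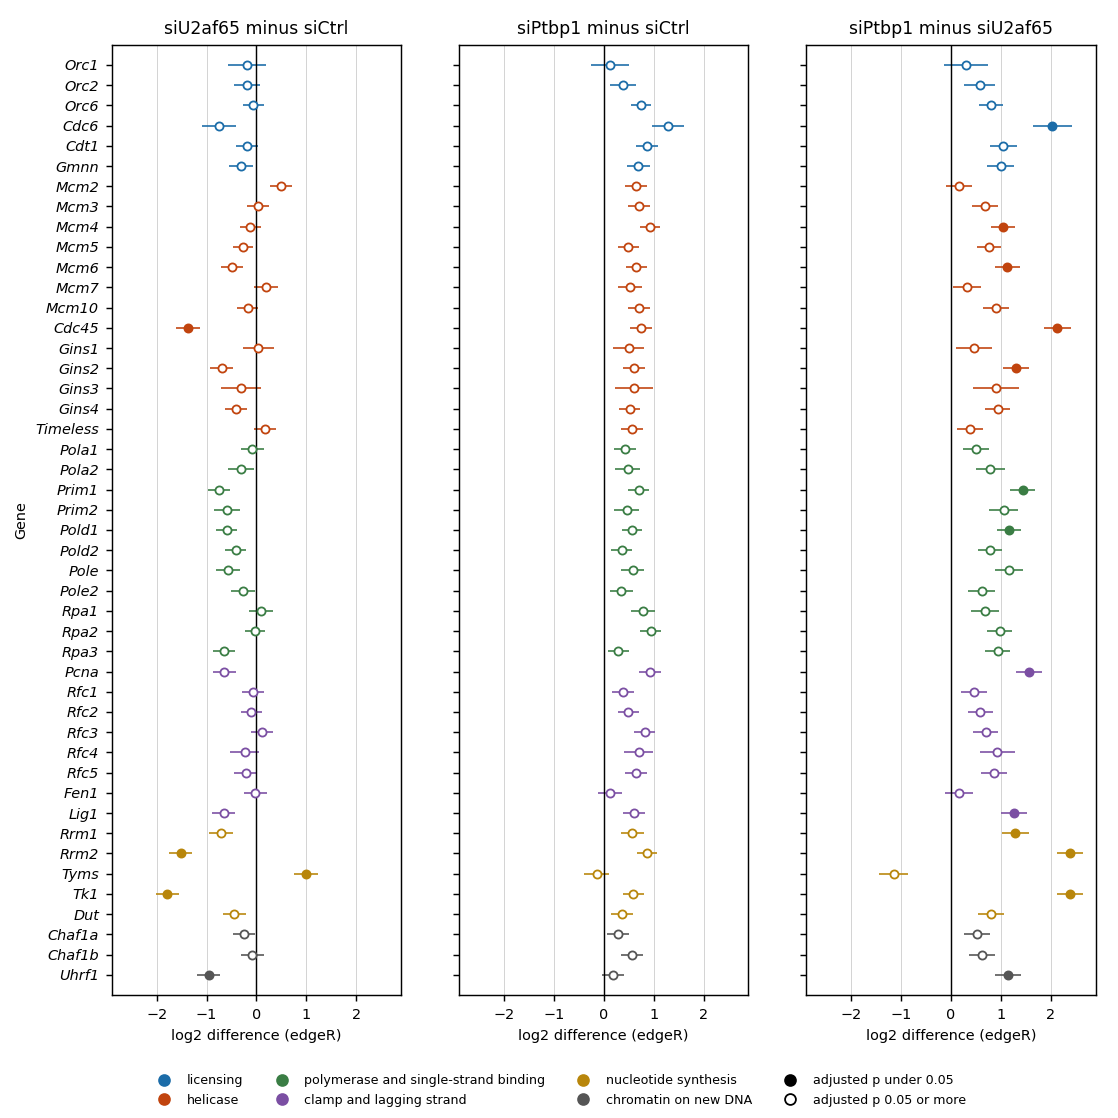
log2 difference of each of the 46 genes in 3 comparisons of the siRNA libraries (horizontal axes, the same in all panels; points are edgeR estimates, bars 1 SE, colors roles, filled points an adjusted p under 0.05). In siU2af65 over siCtrl 5 points are filled, in siPtbp1 over siCtrl none is filled although 45 lie right of 0, and in siPtbp1 over siU2af65 13 are filled, all right of 0.

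Since siU2af65 and siPtbp1 were set against the same siCtrl pair, their results are not independent, and the difference between the knockdowns was tested on its own. Between siPtbp1 and siU2af65, 13 of the 46 genes were higher in siPtbp1 by edgeR's test and none was lower, while 3.62% of all genes were called, 2.54% higher and 1.09% lower. At an unadjusted p under 0.05 stood 35 of the 46, against 20.8% of all genes, and the members' median difference was 0.88. The 13 genes were Cdc6, Mcm4, Mcm6, Cdc45, Gins2, Prim1, Pold1, Pcna, Lig1, Rrm1, Rrm2, Tk1 and Uhrf1, which hold at least 1 gene from each of the 6 roles. The largest differences were 2.38 for Tk1 (edgeR adjusted p = 0.00666, SE 0.26), 2.38 for Rrm2 (edgeR adjusted p = 0.00666, SE 0.26), 2.13 for Cdc45 (edgeR adjusted p = 0.00848, SE 0.27) and 2.03 for Cdc6 (edgeR adjusted p = 0.0277, SE 0.39). Tyms again stood apart, with 10.1 RPKM in siPtbp1 and 23.2 RPKM in siU2af65, a difference of -1.15 that missed the threshold (edgeR adjusted p = 0.0590, SE 0.29). All 6 ring genes had positive differences here, with a median of 0.72, but of unlike size. Mcm6 and Mcm4 were higher in siPtbp1 by 1.13 (SE 0.25) and 1.05 (SE 0.24). Mcm2, with 75.1 RPKM in siPtbp1 and 69.3 RPKM in siU2af65, differed by 0.17 (SE 0.26). The spread among the ring genes was not tested. Each knockdown is 1 library, and siPtbp1 carries letter b and siU2af65 letter a, so knockdown and letter cannot be told apart. With genes limited to a mean of at least 5 RPKM, 5 of 45 members were called higher, against 86 of all 8923 genes.

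Between the hairpin files every one of the 46 genes was higher in shnSR100 than in shGFP. The difference on the log2(RPKM + 1) scale ran from 0.15 for Gins1 to 1.13 for Tyms, with a median of 0.59, against 0.03 for all 11877 genes with at least 1 RPKM in either file, of which 55.7% were positive. A total of 24 of the 46 genes were at least 1.5-fold higher and none that much lower, against 3.10% and 3.69% of all genes. With 1 file per group there is no test of this difference, and the intervals given for ratios cover counting error only. Tyms had 21.5 RPKM in shnSR100 and 9.26 RPKM in shGFP, a ratio of 2.32 (exact 95% counting interval 2.19 to 2.46). Cdc6 had 14.1 RPKM in shnSR100 and 6.34 RPKM in shGFP, a ratio of 2.22 (2.06 to 2.39). Fen1 had 28.3 RPKM in shnSR100 and 14.1 RPKM in shGFP, a ratio of 2.01 (1.90 to 2.12). Tyms and Fen1, which together with Orc1 stood inside the RPKM range of their controls in siPtbp1, were among the 3 genes with the largest differences here.

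By role, 4 of 6 licensing, 7 of 13 helicase, 4 of 11 polymerase and RPA, 4 of 8 clamp and lagging strand, 3 of 5 nucleotide synthesis and 2 of 3 chromatin genes were at least 1.5-fold higher in shnSR100. Among the ring genes the difference ran from 0.47 for Mcm2 to 0.93 for Mcm3, which had 61.7 RPKM in shnSR100 and 31.9 RPKM in shGFP. Mcm4 had 29.1 RPKM in shnSR100 and 15.9 RPKM in shGFP, and Mcm5 had 38.9 RPKM in shnSR100 and 21.2 RPKM in shGFP. Mcm2 had 52.4 RPKM in shnSR100 and 37.5 RPKM in shGFP, Mcm6 had 61.7 RPKM in shnSR100 and 42 RPKM in shGFP, and Mcm7 had 63 RPKM in shnSR100 and 39.3 RPKM in shGFP. Of the factors that load or start the ring, Cdt1 had 59.8 RPKM in shnSR100 and 38.1 RPKM in shGFP, Cdc45 had 24.8 RPKM in shnSR100 and 13.8 RPKM in shGFP, and Gins2 had 32.5 RPKM in shnSR100 and 21.5 RPKM in shGFP. Pole, the catalytic subunit of polymerase epsilon, had 16.3 RPKM in shnSR100 and 8.27 RPKM in shGFP, a ratio of 1.97 (1.89 to 2.05), and Rfc5 had 33.1 RPKM in shnSR100 and 17.4 RPKM in shGFP, a ratio of 1.90 (1.81 to 2.00). Prim1 had 50.3 RPKM in shnSR100 and 31.1 RPKM in shGFP, Pold1 had 29.8 RPKM in shnSR100 and 21.9 RPKM in shGFP, Rpa1 had 40.2 RPKM in shnSR100 and 23.8 RPKM in shGFP, and Rpa2 had 39.3 RPKM in shnSR100 and 22.3 RPKM in shGFP. Rfc3 had 34.3 RPKM in shnSR100 and 23.3 RPKM in shGFP, and Lig1 had 36 RPKM in shnSR100 and 26.2 RPKM in shGFP. Among the nucleotide and chromatin genes, Rrm1 had 54.5 RPKM in shnSR100 and 31.9 RPKM in shGFP, Rrm2 had 38.4 RPKM in shnSR100 and 25.7 RPKM in shGFP, Dut had 80.3 RPKM in shnSR100 and 61.9 RPKM in shGFP, and Uhrf1 had 55.5 RPKM in shnSR100 and 37.9 RPKM in shGFP. At the other end stood Gins1, with 9.41 RPKM in shnSR100 and 8.40 RPKM in shGFP, Gins4, with 33.4 RPKM in shnSR100 and 28.1 RPKM in shGFP, and Pold2, with 54.5 RPKM in shnSR100 and 45.5 RPKM in shGFP.

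**Figure D4:**
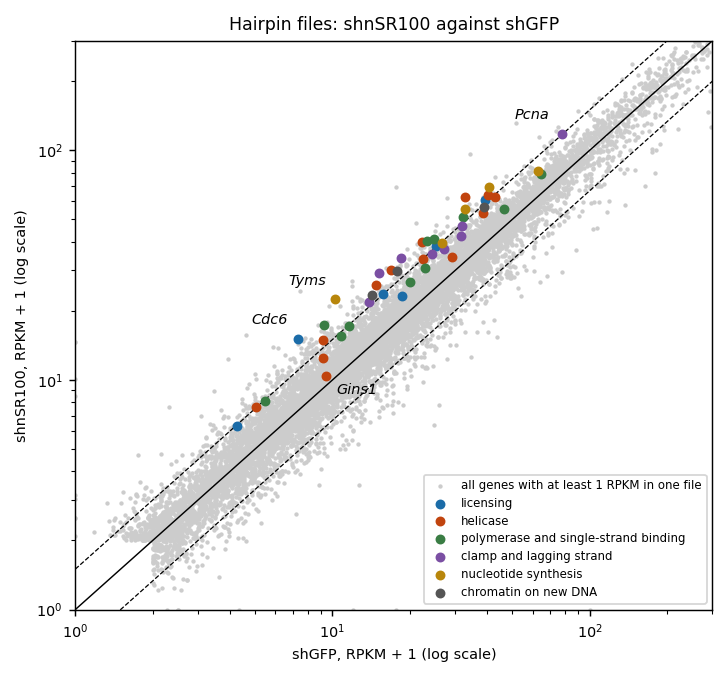
RPKM + 1 in shnSR100 (vertical, log scale) against shGFP (horizontal, log scale) for all genes with at least 1 RPKM in either file (gray) and the 46 replication genes (colored by role). The solid line marks equal values and the dashed lines 1.5-fold; all 46 colored points lie above the solid line, and 202 other genes past 300 on an axis are not drawn.

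The shGFP file was low for these genes also against the siRNA controls. By RPKM, shGFP lay below both siCtrl files for 41 of the 46 genes, against 30.7% of all genes tested. The shnSR100 file lay above both for 24 of the 46, against 53.7% of all, and below both for 17, against 30.0% of all. Pcna is an example: it had 117 RPKM in shnSR100 and 76.8 RPKM in shGFP, against 125 and 139 RPKM in siCtrl a and b, so both hairpin files stood below the siRNA controls. Tk1 had 68.3 RPKM in shnSR100 and 39.6 RPKM in shGFP, against 45.0 and 51.5 RPKM in siCtrl a and b, so the hairpin files lay on either side of the siRNA controls. Hairpin and siRNA cells differed in delivery and drug selection, and these cannot be told apart from a difference in the shGFP population itself. Neuron and neuroblastoma markers had differences of the opposite sign between the hairpin files, with 3 of 8 at least 1.5-fold lower in shnSR100 and none that much higher (median -0.46): Tubb3 had 193 RPKM in shnSR100 and 324 RPKM in shGFP, Stmn2 had 146 RPKM in shnSR100 and 287 RPKM in shGFP, and Mycn had 11.3 RPKM in shnSR100 and 26.9 RPKM in shGFP. Their part in the difference of the replication genes was not tested.

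Other genes of the cell cycle gave each comparison a different frame. The lists were 10 E2F and cyclin genes, 34 other replication fork and origin genes, 31 other nucleotide synthesis genes and 20 mitosis genes, with Top2a in both the replication and the mitosis list. After U2af65 knockdown the mitosis genes had larger negative differences than the replication genes: 11 of 20 fell, all 20 differences were negative, and their median was -1.0, against -0.26 for the 46 members. Of the E2F and cyclin genes 4 of 10 fell (E2f2, E2f8, Ccne1 and Ccna2), for example Ccne1, the G1 to S cyclin gene, with 9.03 RPKM in siU2af65, against 20.8 and 21.7 RPKM in siCtrl a and b. Of the other replication genes 1 of 34 fell (Top2a), with 24 of 34 differences negative and a median of -0.42. Of the other nucleotide synthesis genes 1 of 31 fell, with 17 of 31 differences positive and a median of 0.08. Neither share exceeded the 3.42% of all genes called lower. That gene was Nme1, a nucleoside diphosphate kinase gene, with 6.94 RPKM in siU2af65, against 23.8 and 23.6 RPKM in siCtrl a and b (-1.87, edgeR adjusted p = 0.00791, SE 0.24).

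After Ptbp1 knockdown the order was different. The E2F and cyclin genes had a median of 0.55, close to the 0.57 of the 46 members, with 10 of 10 positive, and the other replication genes had a median of 0.25, with 27 of 34 positive. The mitosis genes had a median of 0.07 and ran from -0.26 to 0.31, and none of the 20 had an unadjusted p under 0.05, compared with 29 of the 46 members. None of the genes of these lists passed edgeR's test. Ccne2, the second cyclin E gene, had 26.4 RPKM in siPtbp1, against 11.8 and 11.7 RPKM in siCtrl a and b (1.12, edgeR adjusted p = 0.417, SE 0.22), and Clspn, the fork checkpoint mediator gene, had 15.7 RPKM in siPtbp1, against 6.62 and 9.32 RPKM in siCtrl a and b (0.94, edgeR adjusted p = 0.724, SE 0.24). Between the hairpin files, 16 of 20 mitosis genes, 6 of 10 E2F and cyclin genes and 12 of 34 other replication genes were at least 1.5-fold higher in shnSR100, and of the other nucleotide synthesis genes 2 were that much higher and 1 that much lower. The difference between the lists was not tested in any comparison.

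**Figure D5:**
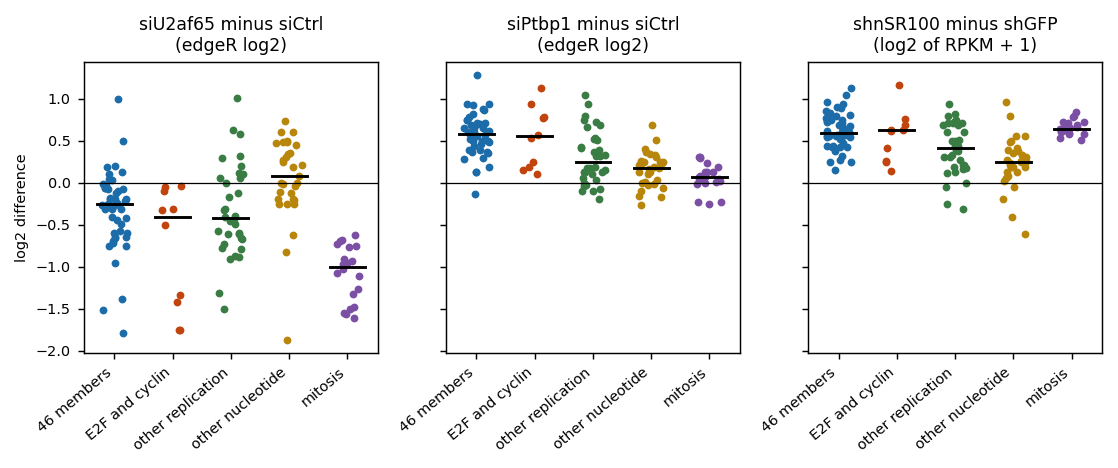
log2 difference of the 46 genes and of 4 other lists of cell cycle genes in 3 comparisons (points are genes, black bars the median of the list; the first 2 panels are edgeR estimates and the third is on the log2(RPKM + 1) scale with no replicates). The mitosis genes lie lowest in siU2af65 over siCtrl, near 0 in siPtbp1 over siCtrl, and level with the 46 genes in shnSR100 over shGFP.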

How the data were processed

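The series holds 22 samples, of which the 8 N2A RNA-seq samples (6 files) were used. The 2 files from 293T cells, a human line, list identifiers that no table used here pairs with symbols, and the crosslinking libraries were not analysed here. Each file gives, per Ensembl gene, raw read counts and an RPKM value deposited by the authors, with no header. A blank count was read as 0. The deposited RPKM equalled the count over a fixed length per gene and over the file's total, as checked on the columns, and 1114 genes had none. Bowtie, bedtools 2.17.0, hg19 and mm9 are named, with no role, per the submitters' processing notes. How reads were counted, whether strand was used and which annotation served are each not given in the sources used here. Of the 46 genes, 12 overlap another protein-coding gene in RefSeq. Libraries were Illumina mRNA-Seq from TRI Reagent RNA, per the labels' protocols. Symbols matched 20759 of 22667 identifiers.

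edgeR 4.0.16 (R 4.3.3) fitted the 4 siRNA libraries in 3 groups on raw counts with TMM scaling, over the 11237 genes whose mean reached 1 RPKM, and 3 contrasts were tested with the quasi-likelihood F test and Benjamini-Hochberg adjustment at 0.05. The siCtrl pair gives the fit its 1 residual degree of freedom, with 8.65 prior degrees of freedom and a common dispersion of 0.0375. The SE is the log2 difference over the square root of its F. The procedure was run on simulated counts with 200 changed genes, drawn with a lower dispersion than that fitted to the data. That run therefore does not give the rate of missed or false calls in these data. Alternatives were library totals, RLE factors, DESeq2 1.42.0, limma 3.58.1 on log2(RPKM + 1) and log2(RPKM + 0.1), other filters, a robust fit, and shGFP as an added or substituted control. Hairpin files were described on log2(RPKM + 1), with a 1.5-fold limit and exact binomial counting intervals at 95%. The pseudocount understates differences of low genes.

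The members and the other lists were chosen with earlier results of these data known. Values in every file were given for members called in any comparison, the 8 with the largest difference in each knockdown, the 6 with the largest between hairpin files, the Mcm2 to Mcm7 genes, Pcna and the nucleotide synthesis genes. Gins1, Gins4 and Pold2, the lowest between the hairpin files, were added after their values were seen.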

Additional observations from a re-analysis of the deposited data

How the results depend on the processing

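The siU2af65 calls (1 rose, 4 fell) were the same in number with library totals, RLE factors, DESeq2 and the robust fit. The limma fits called 6 lower and edgeR without the filter 5. Over all genes, limma on log2(RPKM + 1) and log2(RPKM + 0.1) called 630 and 644 of 11237 lower, and edgeR without the filter 961 of 17488. Limited to genes with at least 5 RPKM, 0 rose and 3 fell, and with shGFP joined to the siCtrl pair or replacing one of them, 0 rose and 0 fell. The median difference of the members in siU2af65 was -0.16 with library totals, -0.14 and -0.15 with limma on log2(RPKM + 1) and log2(RPKM + 0.1), -0.32 without the filter and -0.14 with shGFP added. With shGFP in place of siCtrl a or b it was -0.05 to -0.02. The median of all genes was 0.11 with limma on log2(RPKM + 0.1), and library totals called 581 genes higher and 581 lower in siU2af65, against 205 and 384 with TMM. For siPtbp1, 7 members were called with library totals, 11 with either limma fit and 1 without the filter. Over all genes, 14 of 11237 were called higher with library totals, 29 and 30 with limma on log2(RPKM + 1) and log2(RPKM + 0.1), and 8 of 17488 without the filter. The members' median was 0.63 with limma on log2(RPKM + 0.1), 0.75 with shGFP added, and 0.86 to 0.90 with shGFP in place of siCtrl a or b. For siPtbp1 over siU2af65, 22 members were called higher with either limma fit or without the filter and 5 among genes of at least 5 RPKM. Over all genes, 604 and 615 of 11237 were called higher with limma on log2(RPKM + 1) and log2(RPKM + 0.1). Without the filter 761 of 17488 were, and 86 of 8923 among genes of at least 5 RPKM. Tyms alone was called lower (1 member) with library totals, RLE factors, DESeq2, both limma fits and no filter. The medians there were 0.77 and 0.83 with limma. Of the 46 members, 7 had the other sign in siU2af65 with library totals and with either limma fit, 2 without the filter, 11 with shGFP added, 14 with shGFP in place of either siCtrl library, and 4 and 7 without siCtrl a and without siCtrl b. In siPtbp1 1 did without siCtrl a (Fen1), 1 without siCtrl b (Orc1) and 1 with shGFP in place of siCtrl b (Tyms). Among the 26 genes with values in every file they were, in siU2af65, Mcm3 without the filter (-0.03), Rpa2 (0.06) and Fen1 (0.07) with library totals, Rpa2 (0.07 and 0.07) and Fen1 (0.08 and 0.09) with limma, and, with shGFP added, Cdt1 (0.07), Mcm4 (0.02), Mcm5 (0.01), Rpa2 (0.14) and Fen1 (0.13). With shGFP in place of siCtrl a or b they were Cdt1 (0.14 to 0.33), Mcm4 (0.10 to 0.13), Mcm5 (0.20), Rpa2 (0.23 to 0.29), Fen1 (0.14 to 0.32) and Dut (-0.11 to 0.13) in siU2af65, and Tyms (-0.04 to 0.09) in siPtbp1. Against 1 siCtrl library alone they were Mcm3 (-0.03 to 0.08), Rpa1 (-0.12 to 0.36), Rpa2 (-0.09 to 0.02) and Fen1 (-0.17 to 0.14) in siU2af65, and Fen1 (-0.01 to 0.30) in siPtbp1. The cause of these changes was not tested. Of the 676 tested alternative values of these 26 genes, 592 kept direction and call, 33 gained a call, 27 lost one and 24 changed sign, and of 104 untested values 5 changed sign. Between the hairpin files 28 and 25 members were at least 1.5-fold higher with log2(RPKM + 0.1) and with TMM-scaled counts, against 24. No paired analysis was possible because each knockdown shares a letter with only 1 siCtrl library and each hairpin file pools its runs. With 1 siCtrl library alone the fit has no residual degrees of freedom, so those values have no test.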
